A study of Mus musculus with 8 samples.

Results

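The genes described here encode the subunits, activators and assembly factors of the mouse proteasome. They were taken from the gene table by symbol: Psm, then a letter from a to g, then a digit, with pseudogene symbols left out. This found 51 of 56691 genes. Of these, 49 encode proteasome proteins, and 2 share the symbol pattern only, Psmc3ip, a cofactor of meiotic recombination, and Psme3ip1, whose product binds the activator subunit encoded by Psme3. Another 5 genes were left out as pseudogenes, and the most counted of them, Psma5-ps, had between 60 and 93 counts in a library.

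The proteasome degrades proteins tagged with ubiquitin. Its core particle is a barrel of alpha rings, which gate the entry, around beta rings, which hold the proteolytic sites, and a regulatory particle of ATPase and non-ATPase subunits recognises, unfolds and feeds in the substrate. Interferon-gamma and immune cells replace the constitutive catalytic subunits with the immunoproteasome subunits Psmb8, Psmb9 and Psmb10, which favours peptides that class I molecules present. The transcription factors NRF1 and NRF2 are known to raise proteasome genes when proteasome capacity is short or under oxidative stress.

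Liver RNA came from wild-type C57BL/6J mice, 4 libraries with the control plasmid plive-Con and 4 with plive-Tet1, a plasmid meant to overexpress the DNA demethylase Tet1. Both groups received their plasmid by hydrodynamic tail vein injection, were kept for 4 weeks on HFD-CDAA, a fatty diet without choline whose protein is replaced by amino acids, starting when 6 weeks old, and were killed after a short fast. Hydrodynamic injection reaches part of the hepatocytes, and the RNA was that of whole liver. The treatment labels of plive-Tet1 2, 3 and 4 name other Tet genes, and grouping followed the titles, which name Tet1. Whether each library is 1 animal is not stated in the labels, so the tests reflect variation among libraries that may be technical.

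A library held 15885113 to 19850800 counts, and the 51 genes held between 0.391% of them in plive-Tet1 4 and 0.435% in plive-Tet1 1. Tet1 itself had 1 to 9 counts in the plive-Con libraries and 5 to 12 in the plive-Tet1 libraries. An exact permutation test of its FPKM gave p = 0.371 (two-sided, 4 against 4, smallest possible 0.0286). No gain of Tet1 was therefore detected, with counts summing to 21 in plive-Con and 34 in plive-Tet1. The reason was not tested, and every direction below rests on the titles. Hepatocyte markers summed to between 35590 and 46130 FPKM (fragments scaled to exon length and library total), so the defining cells of the labelled tissue were present. On the first principal component, which held 29.7% of the variance, plive-Con 4 stood apart with a score of 35.5 while the lowest library, plive-Tet1 1, had -17.6. None of the 14533 tested genes passed the edgeR quasi-likelihood test at a Benjamini-Hochberg adjusted p of 0.05 (0% called). Without adjustment 591 genes, or 4.07%, had p under 0.05.

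The promoters of 2 constitutive subunits and of the immunoproteasome subunits that replace them are shown first, because the results below turn on these counterparts. Psmb5 carries the chymotrypsin-like site and is replaced by Psmb8, and Psmb6 carries the caspase-like site and is replaced by Psmb9. Each line holds the 250 bases before the RefSeq start of the gene, 5′ to 3′ on its own strand, and capitals mark a searched motif. The windows are chr14:54617996-54618245 (minus strand) for Psmb5, chr17:34197945-34198194 (plus strand) for Psmb8, chr11:70525107-70525356 (plus strand) for Psmb6 and chr17:34187331-34187580 (minus strand) for Psmb9, on GRCm38.p6, an older build than the GRCm39 of the gene table.
Psmb5 promoter: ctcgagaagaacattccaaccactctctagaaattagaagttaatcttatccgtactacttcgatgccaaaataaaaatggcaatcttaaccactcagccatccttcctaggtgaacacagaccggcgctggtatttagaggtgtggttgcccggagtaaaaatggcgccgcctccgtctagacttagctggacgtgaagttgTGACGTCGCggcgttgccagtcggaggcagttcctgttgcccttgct
Psmb8 promoter: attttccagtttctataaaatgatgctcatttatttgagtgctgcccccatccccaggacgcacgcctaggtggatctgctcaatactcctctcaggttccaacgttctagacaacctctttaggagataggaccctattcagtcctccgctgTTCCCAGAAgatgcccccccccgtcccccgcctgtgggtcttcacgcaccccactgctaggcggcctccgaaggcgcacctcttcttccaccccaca
Psmb6 promoter: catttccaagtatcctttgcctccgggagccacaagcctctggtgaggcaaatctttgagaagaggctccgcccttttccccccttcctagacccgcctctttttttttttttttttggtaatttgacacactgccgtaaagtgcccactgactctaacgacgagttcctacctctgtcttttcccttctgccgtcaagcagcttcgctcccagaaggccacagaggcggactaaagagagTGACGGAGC
Psmb9 promoter: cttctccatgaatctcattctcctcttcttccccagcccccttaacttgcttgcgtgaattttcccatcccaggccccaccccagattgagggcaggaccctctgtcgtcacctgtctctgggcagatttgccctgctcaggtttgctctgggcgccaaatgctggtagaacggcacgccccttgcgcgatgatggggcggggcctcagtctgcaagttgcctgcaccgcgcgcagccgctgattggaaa
The motifs, sought on both strands, were TGACNNNGC (antioxidant response element type, bound by NRF factors), TTCNNNGAA (STAT type) and GAAANNGAAA (interferon-stimulated response element type). Psmb5 held TGACGTCGC 47 bases before its start and Psmb6 held TGACGGAGC 9 bases before. Psmb8 held the STAT type letters TTCCCAGAA 97 bases before its start, and the Psmb9 window held none of the 3. No 2 motifs overlapped in these windows. RefSeq windows were found for 43 of the 51 genes, 47 windows in all. The antioxidant type lay in 10.6% of these windows (Psmb5, Psmb6, Psmc6, Psmd12 and Psmd9) against 10.2% of all 32851 windows. The STAT type lay in 4.26% (Psmb8 and Psmg1) against 7.02%, and the interferon-stimulated type in 6.38% (Psmb3, Psmd4 and Psmd9) against 2.98%. A match describes letters only and is not a shown binding site.

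No proteasome gene differed between plive-Tet1 and plive-Con livers at an adjusted p of 0.05, against 0% of all genes. All adjusted p-values of the 50 tested members in the edgeR quasi-likelihood test were 1 when rounded. Fold changes were small. Their 95% intervals lay inside 1.5-fold either way for 44 of 50 members, and inside 2-fold for 48. The 6 genes whose interval reached past 1.5-fold were Psmb9, Psmb10, Psma8, Psmd9, Psmg4 and Psmc3ip. Without adjustment, Psmb10 and Psmc3ip had p under 0.05, 2 of 50 members against 4.07% of all genes. The gene left untested was Psmb11, the catalytic subunit of the thymus proteasome, which had 1 count in plive-Tet1 2 and 0 counts in the other libraries.

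By direction alone, 16 members were higher and 34 lower with plive-Tet1, with a median log2 fold change of -0.045 against 0.008 over all tested genes. On log2(FPKM + 0.5) in limma, which has no TMM scaling, 26 were higher and 24 lower, with a median of 0.002 against 0.042 over all genes. The member median was below that of all genes in both, and the split by sign moved with the median of all genes. With DESeq2-type size factors in edgeR, 14 were higher and 36 lower. Members were measured more evenly than most genes: the median coefficient of variation of FPKM over the 8 libraries was 10% for members and 18.2% for all tested genes, which also include many genes of lower count.

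**Figure D1:**
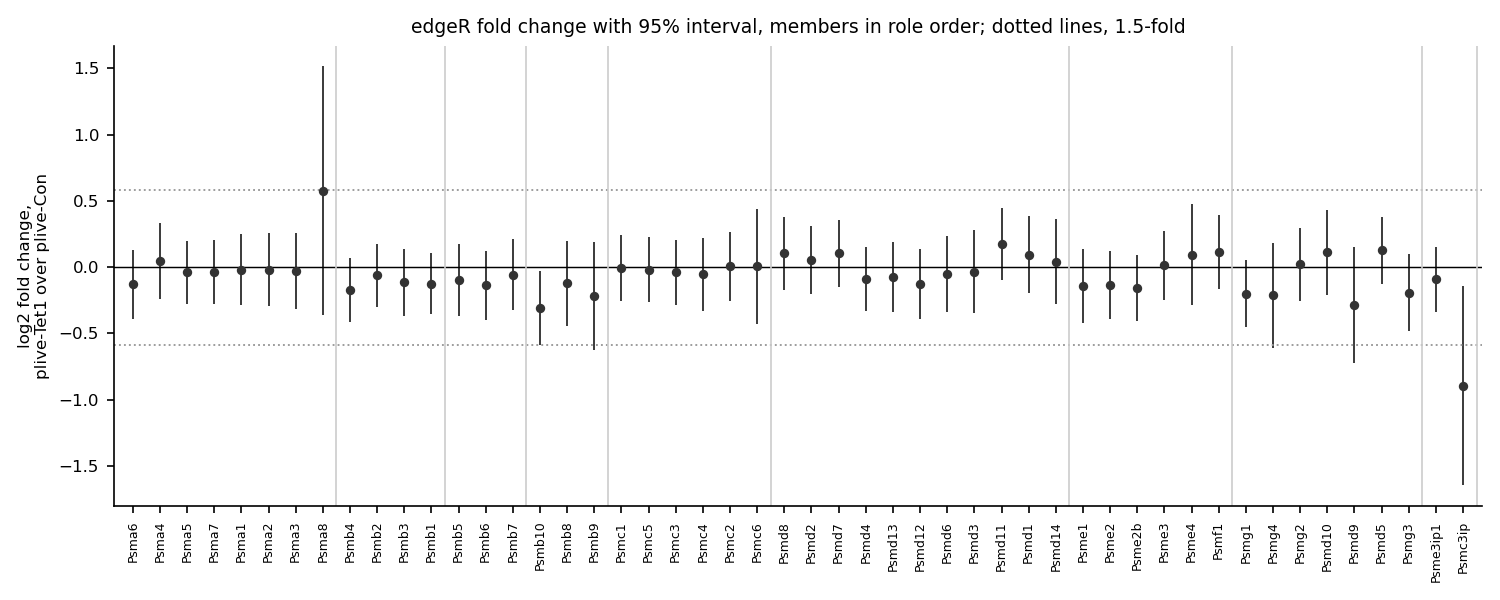
Log2 fold change of plive-Tet1 over plive-Con (y axis) for the 50 tested genes in role order (x axis), from edgeR with 95% intervals; dotted lines mark 1.5-fold. Most points lie close to 0, and the intervals of Psmb10 and Psmc3ip are the ones that leave it out.

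The constitutive core particle, with the testis subunit Psma8 counted in, had a median level of 44.3 FPKM over 15 genes. The median was 27.8 FPKM over the 17 genes of the regulatory particle. Comparisons of level between genes, here and below, rest on the exon length that FPKM divides by. That length was 899 bases for Psmb5 and 3421 bases for Psmb7. Psmb5 had the highest level of any member at 121.5 FPKM over the 8 libraries, and its values were 122, 128, 122 and 121 FPKM with plive-Con and 120, 119, 142 and 97.0 FPKM with plive-Tet1. The plive-Tet1 libraries held both the highest and the lowest level, and enclosed all 4 plive-Con values. The log2 fold change was -0.10 ± 0.13 (SE; edgeR adjusted p = 1). Psmb6 had 74.3, 80.0, 73.9 and 72.1 FPKM with plive-Con and 76.6, 68.9, 78.6 and 58.4 FPKM with plive-Tet1. Its lowest value too was plive-Tet1 4, and the groups overlapped (log2 fold change -0.14 ± 0.12). Psmb7, the trypsin-like subunit, was the least abundant of these, with 25.2, 23.8, 26.5 and 21.6 FPKM against 23.6, 21.5, 26.3 and 24.9 FPKM. Its means were 24.2 ± 2.10 and 24.1 ± 2.06 FPKM (SD, n = 4 each), less apart than the libraries within either group.

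The immunoproteasome subunits were all present in these livers. By FPKM, Psmb8 and Psmb9 were at lower levels than their counterparts and Psmb10 was at a higher mean level. Psmb10, which replaces Psmb7, had 31.0, 34.5, 27.98 and 33.7 FPKM with plive-Con and 26.6, 25.3, 31.8 and 22.4 FPKM with plive-Tet1. Of the plive-Tet1 libraries, 3 lay below every plive-Con library, and plive-Tet1 3 lay inside the plive-Con range. The means were 31.8 ± 2.96 and 26.5 ± 3.93 FPKM (SD, n = 4 each), and the log2 fold change was -0.31 ± 0.13 (SE, 95% interval -0.59 to -0.03). In edgeR its unadjusted p was under 0.05 and its adjusted p was 1, so the difference did not pass the test. With single libraries left out, the edgeR value stayed between -0.44 and -0.24. Its unadjusted p was under 0.05 without plive-Con 1, plive-Con 3 or plive-Tet1 3, and above 0.05 without any of the others. With the replicate number as a block in edgeR it was 0.0509, and in limma on log2(FPKM + 0.5) it was 0.0563. In DESeq2 it was 0.0294.

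Psmb8 had 18.5, 23.05, 13.05 and 16.3 FPKM with plive-Con and 18.0, 16.0, 18.6 and 14.4 FPKM with plive-Tet1. The plive-Con libraries held both its highest level, in plive-Con 2, and its lowest, in plive-Con 3, and the plive-Tet1 values fell between (log2 fold change -0.12 ± 0.15). Single libraries moved this value, to -0.01 without plive-Con 2 and -0.25 without plive-Con 3. Psmb9 was the lowest of the 6 catalytic subunits, with 7.61, 8.77, 5.66 and 5.47 FPKM against 5.81, 5.01, 8.41 and 5.07 FPKM. Its 3 highest libraries were plive-Con 1, plive-Con 2 and plive-Tet1 3, and the groups overlapped (log2 fold change -0.22 ± 0.19, edgeR adjusted p = 1). The value was -0.11 without plive-Con 2 and -0.44 without plive-Tet1 3, where the unadjusted p was under 0.05 and the gene was still not called. Psmb9 stands beside Tap1, which encodes a subunit of the class I peptide transporter, and their spans share 212 bases on opposite strands. Tap1 had 9.02, 8.93, 6.29 and 6.01 FPKM with plive-Con and 5.55, 6.96, 9.10 and 5.43 FPKM with plive-Tet1, and its 3 highest libraries were those of Psmb9. Without a known strand setting, reads of the shared bases cannot be told apart.

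**Figure D2:**
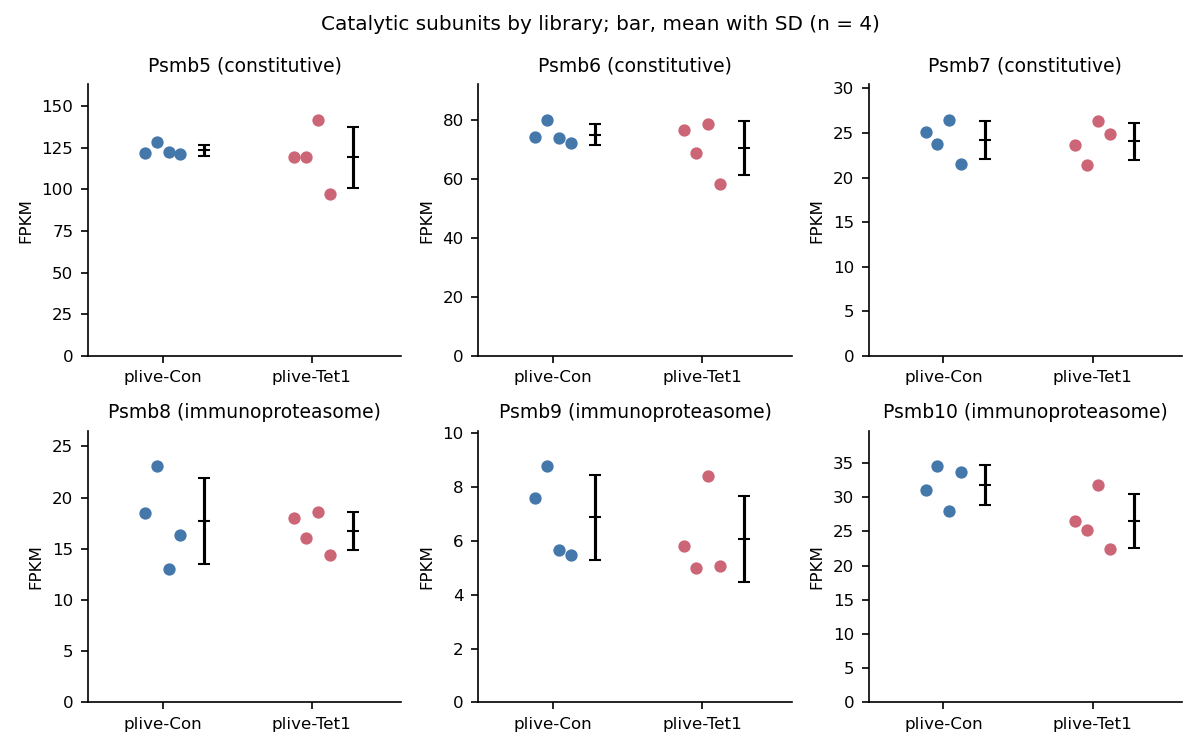
FPKM (y axis, from 0) of the 6 catalytic subunits in each library, by group; points are libraries and bars the mean with SD (n = 4). The groups overlap for every subunit, and for Psmb10 plive-Tet1 3 alone of its group reaches the plive-Con values.

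The balance of immunoproteasome to constitutive subunits was then compared within libraries by FPKM. In plive-Con 1, Psmb8 had 1093 counts over an exon length of 3381 bases, and Psmb5 had 1912 counts over 899 bases. Psmb8 stood at 15.2%, 17.9%, 10.7% and 13.5% of the Psmb5 level with plive-Con and at 15%, 13.4%, 13.1% and 14.8% with plive-Tet1. The mean log2 ratio was -2.83 in both groups, with an SD of 0.32 and 0.10 (n = 4 each), and the difference was 0.001 (SE 0.17). Psmb9 stood at 10.2%, 11.0%, 7.66% and 7.58% of the Psmb6 level with plive-Con and at 7.59%, 7.27%, 10.7% and 8.68% with plive-Tet1. Its mean log2 ratio differed by -0.09 (SE 0.19).

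By FPKM, Psmb10 was above Psmb7 in 7 of 8 libraries, at 123%, 145%, 106% and 156% of its level with plive-Con and at 112%, 118%, 121% and 90% with plive-Tet1. This order rests on the exon lengths of 1705 bases for Psmb10 and 3421 bases for Psmb7. By counts Psmb10 was below Psmb7 in every library, with 923 against 1502 in plive-Con 1 and 758 against 1691 in plive-Tet1 4. The lengths are the same in every library, so the difference of log2 ratio between groups does not rest on them. The mean log2 ratio was 0.39 ± 0.25 and 0.13 ± 0.19 (SD, n = 4 each), a difference of -0.26 (SE 0.16), and the groups overlapped. Exact two-sided permutation tests over the 70 assignments gave p = 1, 0.657 and 0.2 for the 3 pairs in this order, and 1, 0.986 and 0.6 after Benjamini-Hochberg adjustment over the 3. The smallest p this design allows is 0.0286. With each library left out, the Psmb10 to Psmb7 difference ranged from -0.36, without plive-Con 3, to -0.17, without plive-Tet1 4. Leaving out plive-Con 3, the control with the lowest ratio, removed the overlap. The exact permutation p was then 0.0286, not adjusted over the 3 pairs. It is the smallest p possible with a library left out, and shows only that the remaining groups no longer overlapped. The other 7 p-values lay between 0.2 and 0.4.

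As a share of the summed FPKM of the 6 catalytic subunits, the immunoproteasome subunits made up 20.5%, 22.2%, 17.3% and 20.5% with plive-Con and 18.6%, 18.1%, 19.2% and 18.8% with plive-Tet1. The plive-Tet1 shares all fell within the plive-Con range. The mean was 20.2 ± 2.04% and 18.7 ± 0.475% (SD, n = 4 each), with no test run. The size of these shares depends on the exon lengths in the FPKM.

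Immune cells also carry immunoproteasome transcripts, so markers of these and other cell types stand beside these values. All 12 T and NK cell markers were lower with plive-Tet1 by fitted fold change, with a median log2 fold change of -0.73. The edgeR unadjusted p was under 0.05 for 5 of these markers, against 4.07% of all tested genes, and none passed after adjustment. Their summed level was 27.5, 40.7, 8.71 and 19.7 FPKM with plive-Con and 12.7, 12.4, 17.9 and 15.2 FPKM with plive-Tet1. It was highest in plive-Con 2 and lowest in plive-Con 3, the same libraries as for Psmb8. Psmb9, Psmb10 and the constitutive Psmb6 were also highest in plive-Con 2. Their lowest libraries were plive-Tet1 2 for Psmb9 and plive-Tet1 4 for Psmb10 and Psmb6. Of 7 tested B and plasma cell markers, 6 were lower, with sums between 21.4 and 95.5 FPKM against 19.2 and 40.6 FPKM. Of 9 dendritic cell markers, 7 were lower, with sums between 217 and 484 FPKM against 197 and 372 FPKM. Macrophage markers were higher for 6 of 10, with sums between 450 and 526 FPKM against 512 and 643 FPKM. In edgeR, 4 B and plasma cell, 1 dendritic cell and 3 macrophage markers had an unadjusted p under 0.05, and none was called. The macrophage ones went both ways, with log2 fold changes of 0.51 for Trem2, 0.71 for Gpnmb and -0.36 for Clec4f. Markers of other cell types were mostly lower too. Sinusoidal endothelial markers were lower for 8 of 9 (median log2 fold change -0.30), with sums between 55.99 and 82.03 FPKM against 47.9 and 69.8 FPKM. Red cell markers were lower for 4 of 5 tested, with a median of -0.84 and sums between 277 and 505 FPKM against 204 and 332 FPKM. Of these, 3 endothelial and 4 red cell markers had an unadjusted p under 0.05, again against 4.07% of all tested genes, and none was called. Neutrophil markers were lower for 4 of 5 tested (median -0.12), and stellate cell markers higher for 4 of 7 (median 0.02). Hepatocyte markers were lower for 8 of 10 (median -0.15), with an unadjusted p under 0.05 for 0 of them. Markers of a cell type share the same libraries and are not independent, so these counts beside the share of all genes are descriptions only. No marker of these lists was at 0 in every library. Their part in the Psmb8, Psmb9 and Psmb10 levels was not tested. In whole liver RNA, fewer cells of a type and less RNA per cell cannot be told apart.

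**Figure D3:**
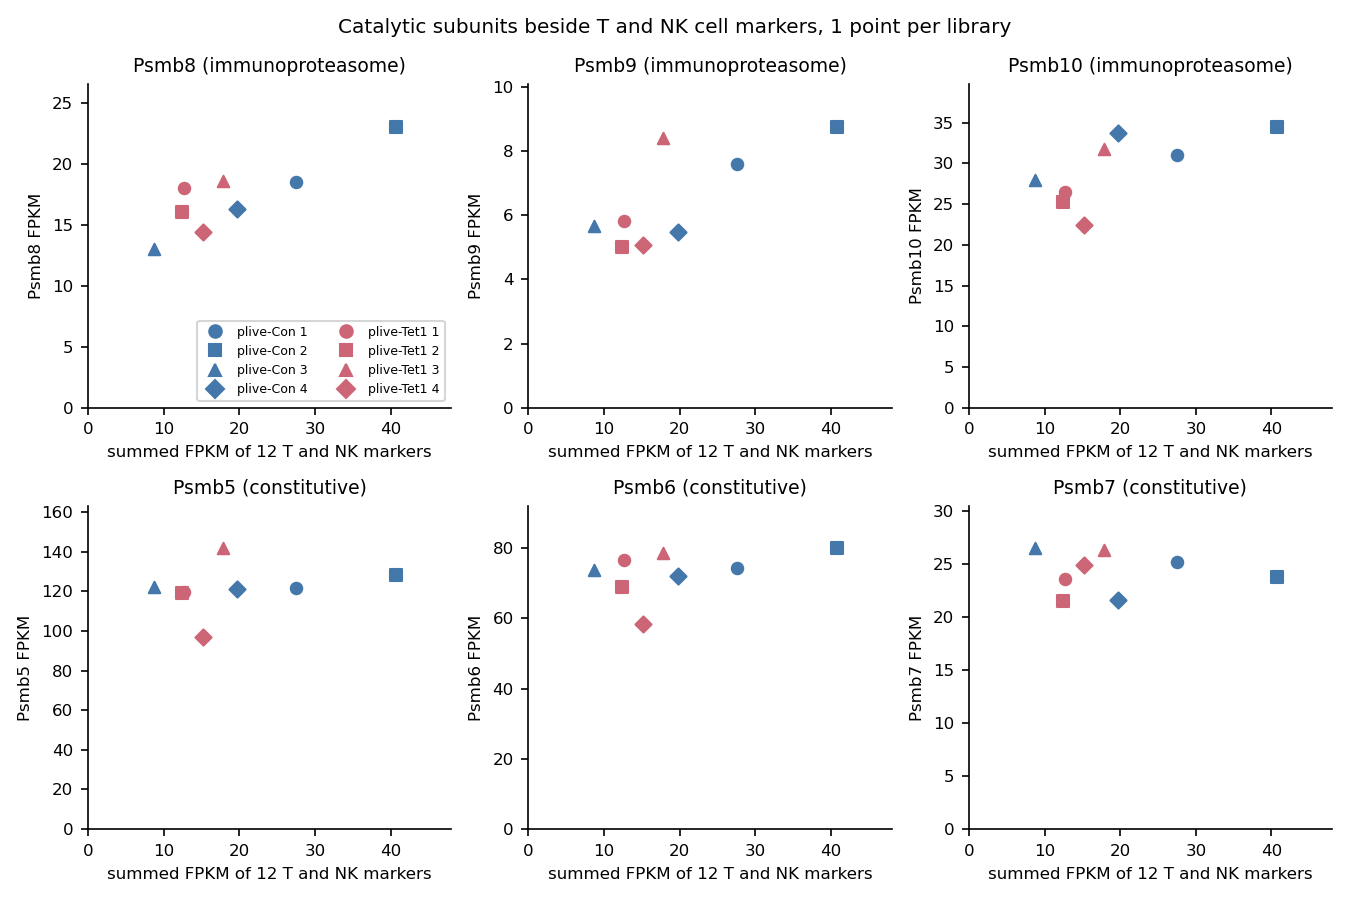
FPKM of the catalytic subunits (y axis) against the summed FPKM of 12 T and NK cell markers (x axis), with 1 point per library, coloured by group and shaped by replicate number. Marker sums run from 8.71 to 40.7 FPKM, and plive-Con 2 and plive-Con 3 hold both the marker extremes and the Psmb8 extremes. Psmb9 is lowest in plive-Tet1 2 and Psmb10 in plive-Tet1 4.

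The structural beta subunits, which complete the beta ring without a proteolytic site, were lower for 4 of 4 by fitted fold change, with a median of -0.12, and none passed the test. Psmb4, the most abundant of them, had 92.5, 92.8, 90.4 and 97.5 FPKM with plive-Con and 85.9, 82.6, 93.1 and 80.2 FPKM with plive-Tet1. As with Psmb10, 3 plive-Tet1 libraries were below every plive-Con library and plive-Tet1 3 was not (log2 fold change -0.18 ± 0.11, edgeR adjusted p = 1). Psmb1, the least abundant, had 26.8, 29.3, 27.9 and 26.8 FPKM against 28.01, 25.8, 26.7 and 24.6 FPKM, and the groups overlapped. Psmb2 and Psmb3 had mean levels of 58.95 and 44.9 FPKM and log2 fold changes of -0.06 and -0.12.

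The alpha ring was lower for 6 of 8 and higher for Psma4 and Psma8, with a median log2 fold change of -0.03. Psma6 was its most abundant subunit, with 108, 115, 98.05 and 106 FPKM with plive-Con and 114, 89.6, 91.5 and 106 FPKM with plive-Tet1. Its plive-Tet1 libraries split around the plive-Con range, with 2 below it and 2 inside it (log2 fold change -0.13 ± 0.12). Psma8, the alpha subunit of the testis proteasome, had 24, 14, 10 and 11 counts with plive-Con and 37, 30, 19 and 11 counts with plive-Tet1, or between 0.22 and 0.89 FPKM. Its log2 fold change of 0.58 ± 0.43 (edgeR adjusted p = 1) rested on few counts. The other ubiquitous alpha subunits, Psma1 to Psma5 and Psma7, had mean levels between 19.4 and 47.5 FPKM and log2 fold changes between -0.04 and 0.05.

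The ATPase ring that unfolds substrates had log2 fold changes from -0.06 for Psmc4 to 0.01 for Psmc2, with a median of -0.01, and none of its 6 genes passed the test. Psmc1, the most abundant ATPase, had 72.5, 66.3, 68.5 and 78.4 FPKM with plive-Con and 74.7, 73.1, 71.3 and 75.8 FPKM with plive-Tet1. The plive-Tet1 libraries lay within the plive-Con range. Psmc6, the least abundant, had 9.73, 15.5, 12.5 and 9.81 FPKM against 15.8, 10.7, 8.32 and 14.2 FPKM. It varied 1.9-fold between libraries in no relation to group, with a log2 fold change of 0.01 ± 0.20. Both signs changed between scalings and tools, the Psmc1 one to 0.05 in limma on log2(FPKM + 0.5).

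Among the 11 non-ATPase subunits, 6 were higher and 5 lower, with a median log2 fold change of 0.04. Psmd11, which joins the lid to the core, had 15.8, 13.2, 16.0 and 14.1 FPKM with plive-Con and 16.1, 19.6, 17.2 and 16.3 FPKM with plive-Tet1. It was the 1 of 50 members whose FPKM groups did not overlap, against 2.56% of all tested genes, and the gap between 15.97 and 16.13 FPKM was narrow. The Psmd11 log2 fold change was 0.17 ± 0.12 (edgeR adjusted p = 1). Psmd7, which pairs with the deubiquitinase Psmd14, had 41.6, 39.5, 38.5 and 47.3 FPKM against 49.7, 49.1, 44.0 and 43.05 FPKM, and the groups overlapped (0.10 ± 0.12). Psmd8, a lid subunit and the most abundant of this group, had 82.9, 79.2, 67.8 and 92.8 FPKM against 85.8, 99.6, 91.6 and 81.4 FPKM, again overlapping. Psmd14, the subunit that removes ubiquitin chains from substrates, was the least abundant, with 14.6, 16.9, 14.3 and 10.3 FPKM against 16.7, 13.4, 13.2 and 16.0 FPKM. Its lowest value was that of plive-Con 4. The other members of this group, such as the scaffold subunits Psmd1 and Psmd2 and the ubiquitin receptor Psmd4, had log2 fold changes between -0.13 and 0.09.

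**Figure D4:**
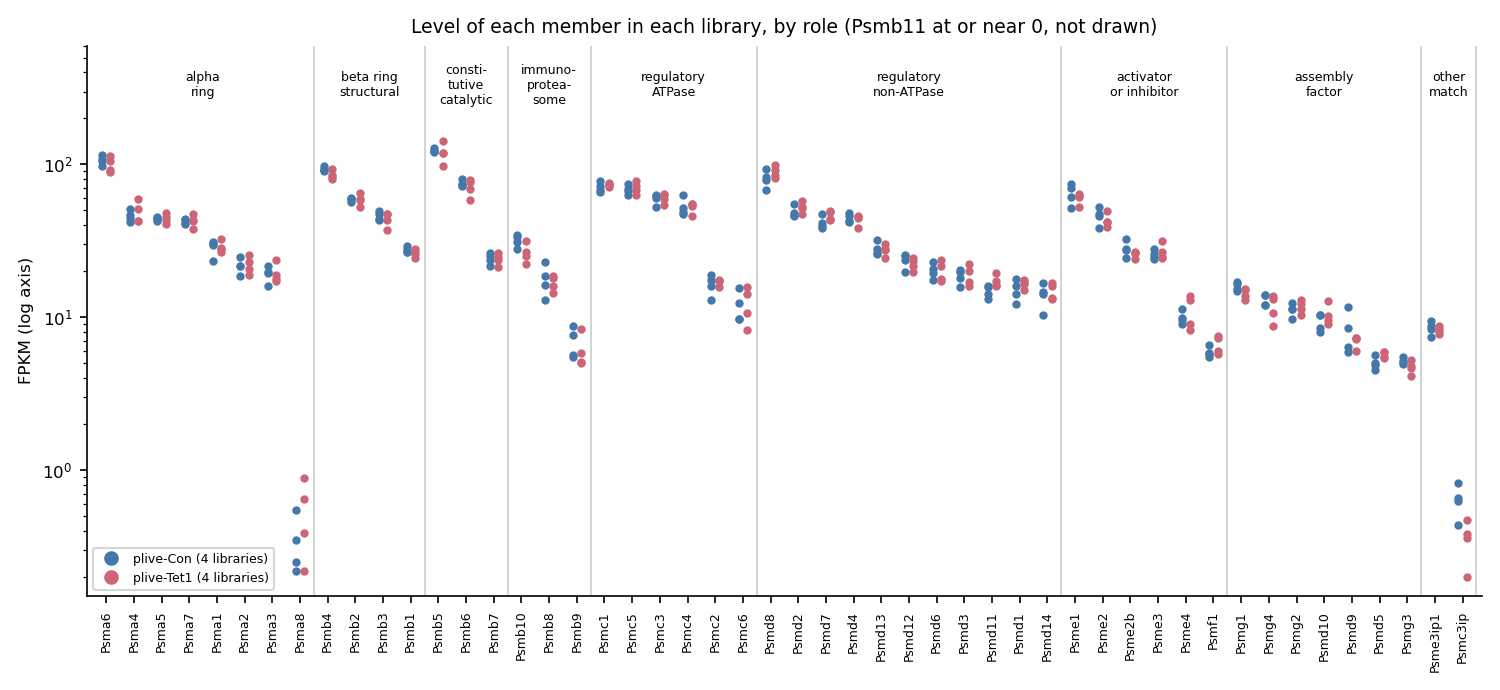
FPKM (y axis, log scale) of each gene in each library, grouped by role along the x axis; colours mark the group. Levels span from 0.20 FPKM for Psmc3ip to 142 FPKM for Psmb5, and the groups overlap for every gene drawn except Psmd11.

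The activators and the inhibitor open or close the ends of the core. Psme1 and Psme2 form the interferon-induced cap and are often raised together with the immunoproteasome. Psme1 had 60.8, 70.5, 52.3 and 74.0 FPKM with plive-Con and 62.3, 61.4, 64.2 and 52.9 FPKM with plive-Tet1. Psme2 had 47.2, 52.5, 38.4 and 45.9 FPKM against 49.7, 41.7, 42.2 and 38.8 FPKM. Both were lowest in plive-Con 3, overlapped between groups and had a log2 fold change of -0.14 (SE 0.13 and 0.12). Psme2b is a near copy of Psme2, so reads may be split between them, and its log2 fold change was -0.16. Psmf1, an inhibitor of the core particle, had 5.53, 5.78, 5.88 and 6.57 FPKM against 5.74, 7.32, 7.58 and 5.98 FPKM (0.11 ± 0.13). The nuclear activators Psme3 and Psme4 had log2 fold changes of 0.01 and 0.09.

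Assembly factors had low mean levels, between 4.95 and 15.1 FPKM, and a median log2 fold change of -0.19 (3 higher, 4 lower, none called). That median was -0.05 without plive-Con 4 and -0.11 without plive-Tet1 4. Psmg1, which forms a chaperone of the alpha ring with Psmg2, had 15.3, 17.1, 14.9 and 16.5 FPKM with plive-Con and 13.0, 15.4, 15.1 and 13.8 FPKM with plive-Tet1. The groups overlapped (log2 fold change -0.20 ± 0.12, edgeR adjusted p = 1), and Psmg2 had 0.02. Psmg3, which pairs with Psmg4, had 5.21, 4.96, 5.52 and 5.08 FPKM against 4.69, 4.77, 5.26 and 4.11 FPKM (-0.19 ± 0.13), and Psmg4 had -0.21. Psmd5, a chaperone of the ATPase ring, had 5.71, 4.91, 5.01 and 4.51 FPKM against 5.46, 5.95, 5.39 and 5.94 FPKM, with every plive-Tet1 library above plive-Con 2, 3 and 4 but not all above plive-Con 1 (0.13 ± 0.12). Psmd10, also an ATPase chaperone, had 0.11.

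Psmd9, another chaperone of the ATPase ring, had 6.42, 5.97, 8.55 and 11.7 FPKM with plive-Con and 6.03, 7.25, 7.28 and 7.36 FPKM with plive-Tet1. Its span shares 10921 bases with Hpd, a highly expressed tyrosine-breakdown enzyme of hepatocytes on the other strand. Hpd had 559, 412, 630.4 and 664 FPKM against 402, 418, 516 and 523 FPKM, and both genes were highest in plive-Con 4 and next highest in plive-Con 3. The part of Hpd reads in the Psmd9 values was not tested. In all, 25 of the 51 members overlap another gene of the table.

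Of the genes that only share the symbol pattern, Psmc3ip had 14, 24, 21 and 21 counts with plive-Con and 11, 13, 7 and 17 counts with plive-Tet1. That is 0.44, 0.83, 0.63 and 0.66 FPKM against 0.36, 0.38, 0.20 and 0.47 FPKM, with plive-Tet1 4 inside the plive-Con range (log2 fold change -0.89 ± 0.35, edgeR adjusted p = 1). Psme3ip1 had 8.44, 8.75, 7.46 and 9.49 FPKM against 8.38, 8.77, 8.14 and 7.83 FPKM (-0.09 ± 0.11).

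The extremes were spread unevenly over libraries. Among the 48 tested proteasome genes, plive-Tet1 4 was the lowest library for 15 and plive-Tet1 1 the highest for 14, both in the same group. Of the control libraries, plive-Con 2 was the highest for 12, and plive-Con 4 was the highest for 9 and the lowest for 9. These extremes are of FPKM, which has no TMM scaling. They were not counted over all tested genes, so the spread may not be particular to the members.

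In some libraries, the members above and below their mean differed in base composition. Transcript GC content was taken from the longest GENCODE M21 transcript of each gene and was known for all 50 tested members. In plive-Con 4, 22 of the 25 members with a GC content of 49.7% or more were above their mean over libraries, and 8 of the 25 below it. In plive-Tet1 4 the numbers were 2 of 25 and 13 of 25. Across the 50 members, Spearman's rho of GC content with the deviation in a library was 0.71 in plive-Con 4, 0.55 in plive-Tet1 3, -0.48 in plive-Tet1 1 and -0.73 in plive-Tet1 4. Across the 14362 tested genes with a GC value it was 0.18, 0.54, -0.33 and -0.56. These are descriptions across genes that share libraries and are not independent. The fold change itself had a rho of -0.53 with GC across members and -0.10 across all genes. The member value was -0.17 without plive-Con 4 and -0.23 without plive-Tet1 4 and so was smaller without either library. With a GC offset per library it was -0.48, and the cause was not tested.

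**Figure D5:**
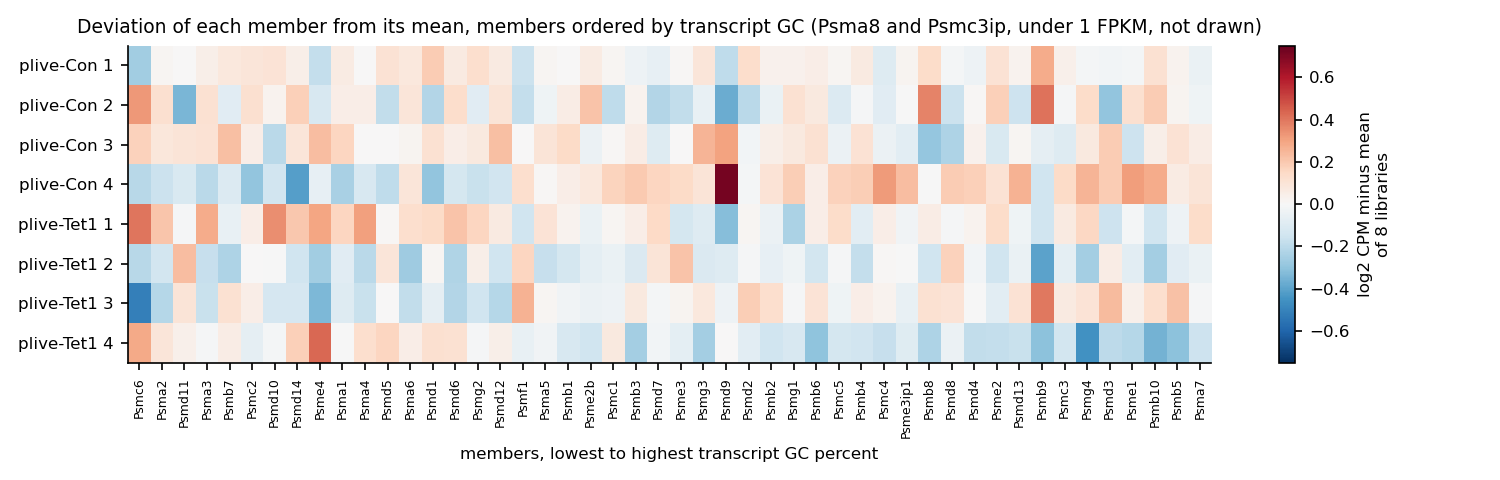
Deviation of log2 CPM from the mean of 8 libraries (colour) for each library (rows) and member (columns, from low to high transcript GC content). In plive-Con 4, 22 of 25 members of higher GC are above their mean, and in plive-Tet1 4 it is 2 of 25.

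The genes around the proteasome were read from lists of known roles, and no gene of them passed the edgeR test. Of 12 proteasome-related genes outside the symbol pattern, such as the maturation factor Pomp, 3 were higher and 9 lower with a median log2 fold change of -0.02. The smallest p-values were those of the ubiquitin ligase Ube3c (0.14 ± 0.13) and the importin Ipo9 (0.10 ± 0.12). Of 9 genes of the NRF1 and NRF2 control, 5 were higher and 4 lower with a median of 0.00. There the NRF2 gene Nfe2l2 had 0.25 ± 0.13, Maff, a small partner of these factors, -0.59 ± 0.30, and the NRF1 gene Nfe2l1 -0.05 ± 0.16. Maff had 14.96 FPKM in plive-Con 4, against 4.97, 6.55 and 6.12 FPKM in the other plive-Con libraries. With plive-Tet1 it had 6.04, 6.38, 6.06 and 4.14 FPKM. Of 13 genes that supply or shuttle ubiquitin, 8 were higher and 5 lower with a median of 0.05, led by the activating enzymes Uba1 (0.21 ± 0.13) and Uba6 (0.31 ± 0.26).

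Of 12 class I antigen processing genes, 6 were higher and 6 lower with a median log2 fold change of -0.03. The chaperone Calr had 0.34 ± 0.16 and the class I transactivator Nlrc5 had -0.19 ± 0.15. Of 14 tested interferon-gamma genes, 3 were higher and 11 lower with a median of -0.21, against 0.008 over all genes, and 1 had an unadjusted p under 0.05. That was Igtp, an interferon-induced GTPase, with 31.0, 30.8, 21.5 and 28.1 FPKM with plive-Con and 20.4, 22.3, 22.2 and 19.7 FPKM with plive-Tet1 (-0.44 ± 0.12, edgeR adjusted p = 1). The groups overlapped through plive-Con 3, the library with the lowest Psmb8. Gbp2, another such GTPase, had -0.36 ± 0.18, and Ifng itself had too few counts to be tested.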

How the data were processed

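For the 8 liver libraries, the submitters' processing notes list the trimmer cutadapt 1.9.1, the aligner HISAT2 2.2.1, the counter HTSeq 0.6.1 and the build GRCm39. The sources used here do not give the strand setting, counting mode or annotation release. The deposited table holds raw read counts and FPKM values for 56691 genes, per the file headers. The deposited FPKM differed from the count per length and library total by at most 0.00500. Members, roles and lists were chosen with earlier results of these data known. Counts were tested with edgeR 4.0.16 (R 4.3.3) by the quasi-likelihood test: filterByExpr, 14533 genes, TMM, group only, two-sided, Benjamini-Hochberg over all tested genes at 0.05. SE and 95% intervals come from that statistic. Alternatives used limma 3.58.1, DESeq2 1.42.0, other filters and scalings, a replicate block and each library left out, and a GC offset was added after seeing the data. The edgeR step was tested on simulated data. Values per library are given for the catalytic subunits, Psme1, Psme2, the 5 smallest p-values in each direction and the most and least abundant member of each role. From each list the 2 smallest p-values are named. Psmd9, Tap1, Hpd, Nfe2l1, Trem2, Gpnmb and Clec4f were named after their values were seen. All 12 within-group library pairs differed beyond counting error, with a chi-square of 12.9 to 77.6 per degree of freedom. Promoter sequences are those of RefSeq on GRCm38.p6.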

Additional observations from a re-analysis of the deposited data

Results flagged for a closer look

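Of 108 groups of 4 libraries examined, 5 held a library far from the other 3 by Dixon's criterion, and chance alone flags about 1 in 20 groups. The ATPase gene Psmc4 had 46.04 FPKM in plive-Tet1 4, where the others had 53.8 to 55.1 FPKM. Psmc2, also an ATPase gene, had 15.67 FPKM in plive-Tet1 4 against 17.3 to 17.5 FPKM. The activator copy Psme2b had 24.13 FPKM in plive-Tet1 4 against 26.4 to 26.8 FPKM. The chaperone gene Psmd9 had 6.03 FPKM in plive-Tet1 1 against 7.25 to 7.36 FPKM. The catalytic subunit gene Psmb5 had 128.4 FPKM in plive-Con 2 against 121.4 to 122.3 FPKM.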

How the results depend on the processing

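No member was called under any alternative run. Over all genes, edgeR called 132 with no filter on low counts and 0 with it. DESeq2, also run without that filter, called 11. Of 430 alternative fold changes of 24 named members, 409 kept their direction and 21, of 3 members with an absolute log2 fold change of at most 0.042, reversed. For Psmc6 they were -0.007 with DESeq2-type size factors, -0.004 with no filter, -0.001 with the GC offset, -0.021 in voom and -0.005 in DESeq2. For Psmc1 they were 0.001 in voom, 0.048 in limma on log2(FPKM + 0.5), 0.048 and 0.047 with pseudocounts of 0.1 and 1, and 0.048 with genes under a mean FPKM of 1 removed. The cause was not tested.

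With each library left out in turn, fold changes ranged from -0.139 to 0.127 for Psmc6, from -0.065 to 0.055 for Psmc1 and from -0.071 to 0.109 for Psmd14. Differences of log2 ratio ranged from -0.132 to 0.118 for Psmb8 to Psmb5, from -0.200 to 0.008 for Psmb9 to Psmb6 and from -0.364 to -0.165 for Psmb10 to Psmb7. The median of the immunoproteasome subunits, -0.215 with all libraries, ranged from -0.436 without plive-Tet1 3 to -0.112 without plive-Con 2. That of the assembly factors, -0.192, ranged from -0.256 to -0.047.

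Libraries with the same replicate number did not deviate together (correlations 0.0084, -0.0199, 0.0691 and -0.0405). The values gave no sign of pairing by number, but such correlations cannot exclude a shared preparation. With the replicate block 0 genes and 0 members were called, Psmb10 had -0.317, Psmc1 0.000 and Psmc6 -0.018. Psmb11, Psma8 and Psmc3ip have too few counts for a small difference to be detectable.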
